A study of Mus musculus with 12 samples.

Results

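A set of 10 genes of the circadian clock was followed across the livers of 12 mice. Arntl codes for the activator BMAL1. Per1, Per2, Per3 and Cry1 code for the repressors PER1 to PER3 and CRY1. Nr1d1 and Nr1d2 code for the nuclear receptors REV-ERBα and REV-ERBβ, and Dbp, Tef and Hlf code for the PAR bZIP transcription factors, through which the clock reaches many liver genes. They were listed by symbol, with earlier results of these data known, and found through the RefSeq accession of each probe. All 10 genes, of 32524 genes and unmatched transcripts on the array, had a probe, with 11 probes in all because Dbp had a second one.

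Liver RNA was measured on single-color Agilent arrays with 1 mouse per array. Floxed mice (n = 6) were Phgdh flox/flox littermate controls, and LKO mice (n = 6) were Alb+/Cre;Phgdh flox/flox, in which the albumin promoter drives Cre in hepatocytes, so that the other cells of the liver keep Phgdh, the first enzyme of serine synthesis from glucose. All were male C57BL/6 mice of 30 weeks, kept in a 12-h light/dark cycle on chow with 20% casein. The hour at which the livers were taken is not given in the sources used here. Slide 1 held Floxed 1 to 4, slide 2 held Floxed 5 and 6 with LKO 1 and 2, and slide 3 held LKO 3 to 6. Each slide was scanned once, and slide 2 alone had both genotypes.

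Each array had 21614 to 24252 probes well above background, of 39429, and precision is limited by the number of arrays. Phgdh had a log2 intensity of 5.18 ± 0.23 in Floxed and 4.70 ± 0.41 in LKO mice (SD, n = 6 each). LKO 1 (5.07) and LKO 2 (5.30) lay within the Floxed range of 4.81 to 5.50, unlike LKO 3 to 6 (4.23 to 4.66). Both arrays therefore did not follow their label at this probe, which may not read the part of Phgdh that was deleted, and genotype differences are also given without them. Of the hepatocyte markers, 9 of 10 were tested and none was called, beside 8.35% of all genes, a share that leaves few calls among so few markers. The log2 of the summed intensity of these markers was 20.53 to 20.69 in either genotype. That sum rests largely on the brightest probes, which quantile normalization holds nearly fixed (Serpina1a was at 18.77 throughout). It therefore does not measure hepatocyte content. Of the markers of other cells, Pecam1 of endothelial cells was the only one called (log2 fold change 0.70, adjusted p = 0.273 in limma). It was 1 of 6 tested endothelial markers, whose summed log2 intensity was 13.95 to 14.20 in the Floxed and 13.93 to 14.53 in the LKO group, and its part in the results was not tested. In whole liver, fewer cells of a type and less RNA per cell cannot be told apart.

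The clock is a feedback loop of transcription. BMAL1 and its partner CLOCK bind E-boxes and drive the genes of PER, CRY, REV-ERB and DBP. PER and CRY then block BMAL1 and CLOCK, while REV-ERB proteins silence Arntl through the RORE, so that Arntl and Dbp reach their peaks at opposite times of day in the liver. DBP, TEF and HLF bind the D-box. The difference between Dbp and Arntl within 1 liver therefore serves as a coarse reading of clock phase, while Per1 is also known to respond directly to glucocorticoids and to cAMP through CREB.

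The following windows of RefSeq promoters (assembly GRCm38.p6, 250 bases before to 50 after the start of transcription) are shown because they hold the motifs through which these genes are known to be joined. Capitals mark the E-box CACGTG, the D-box TTANGTAA, the CRE TGACGTCA or the RORE, searched in the forms TAGGTCA and, with a second G, TGGGTCA. Both strands were searched, and none of these promoters held more than 1 kind of motif.
Per1, E-box 166 bases before the start, chr11:69098763-69098808, plus strand: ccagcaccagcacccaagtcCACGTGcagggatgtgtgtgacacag
Cry1, E-box 60 bases before the start, chr10:85185089-85185134, minus strand: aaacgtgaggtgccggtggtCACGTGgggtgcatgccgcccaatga
Tef, E-box 127 bases before 1 start, chr15:81802526-81802571, plus strand: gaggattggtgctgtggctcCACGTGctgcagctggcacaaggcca
Tef, E-box 138 bases before the other start, chr15:81811256-81811301, plus strand: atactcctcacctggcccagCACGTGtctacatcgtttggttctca
Per3, D-boxes 205 and 158 bases before the start, chr4:151044796-151044890, minus strand: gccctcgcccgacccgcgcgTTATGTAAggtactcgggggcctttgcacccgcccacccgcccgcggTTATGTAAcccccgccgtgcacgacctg
Arntl, RORE 30 bases after the start, chr7:113207531-113207557, plus strand: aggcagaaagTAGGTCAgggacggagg
Hlf, CRE 9 bases before the start, chr11:90390918-90390946, minus strand: tcggcgcgcggtgcgggcccTGACGTCAc

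Of the 10 genes, 9 matched an entry, with 12 promoters between them, and Per2 was the one without. Per1, Arntl and Tef had 2 promoters each, and for Per1 and Arntl the motif is shown at 1 of them. E-boxes stood in 3 of the 9 genes, counting a match in any promoter of a gene, while the shares given below are by promoter. The windows of Nr1d1, Nr1d2 and Dbp held none of the motifs, which says only that these letters are not in these windows. Of all 32851 promoters in the table, 7.15% held the E-box, 2.32% the D-box, 6.45% the RORE and 1.79% the CRE. A match is a description of the sequence and not evidence of binding.

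Per1 was lower in the livers of LKO mice, and the other genes of the loop were mostly not separable between the genotypes. Genes were tested by limma across all 16915 genes whose probe was well above background on all arrays, and called at an unadjusted p below 0.05. Of the 10 genes 8 could be tested, and 2 were called, Per1 and Hlf, both lower in LKO mice. Over all genes 8.35% were called, 3.43% lower and 4.92% higher. With the limma p adjusted by the Benjamini-Hochberg method, 0 of the 8 genes and 0% of all genes passed. The median log2 fold change of the 8 genes was -0.27, against -0.0035 for all genes tested. None of the 8 genes had groups free of overlap, and 0.296% of all genes had groups without overlap.

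**Figure D1:**
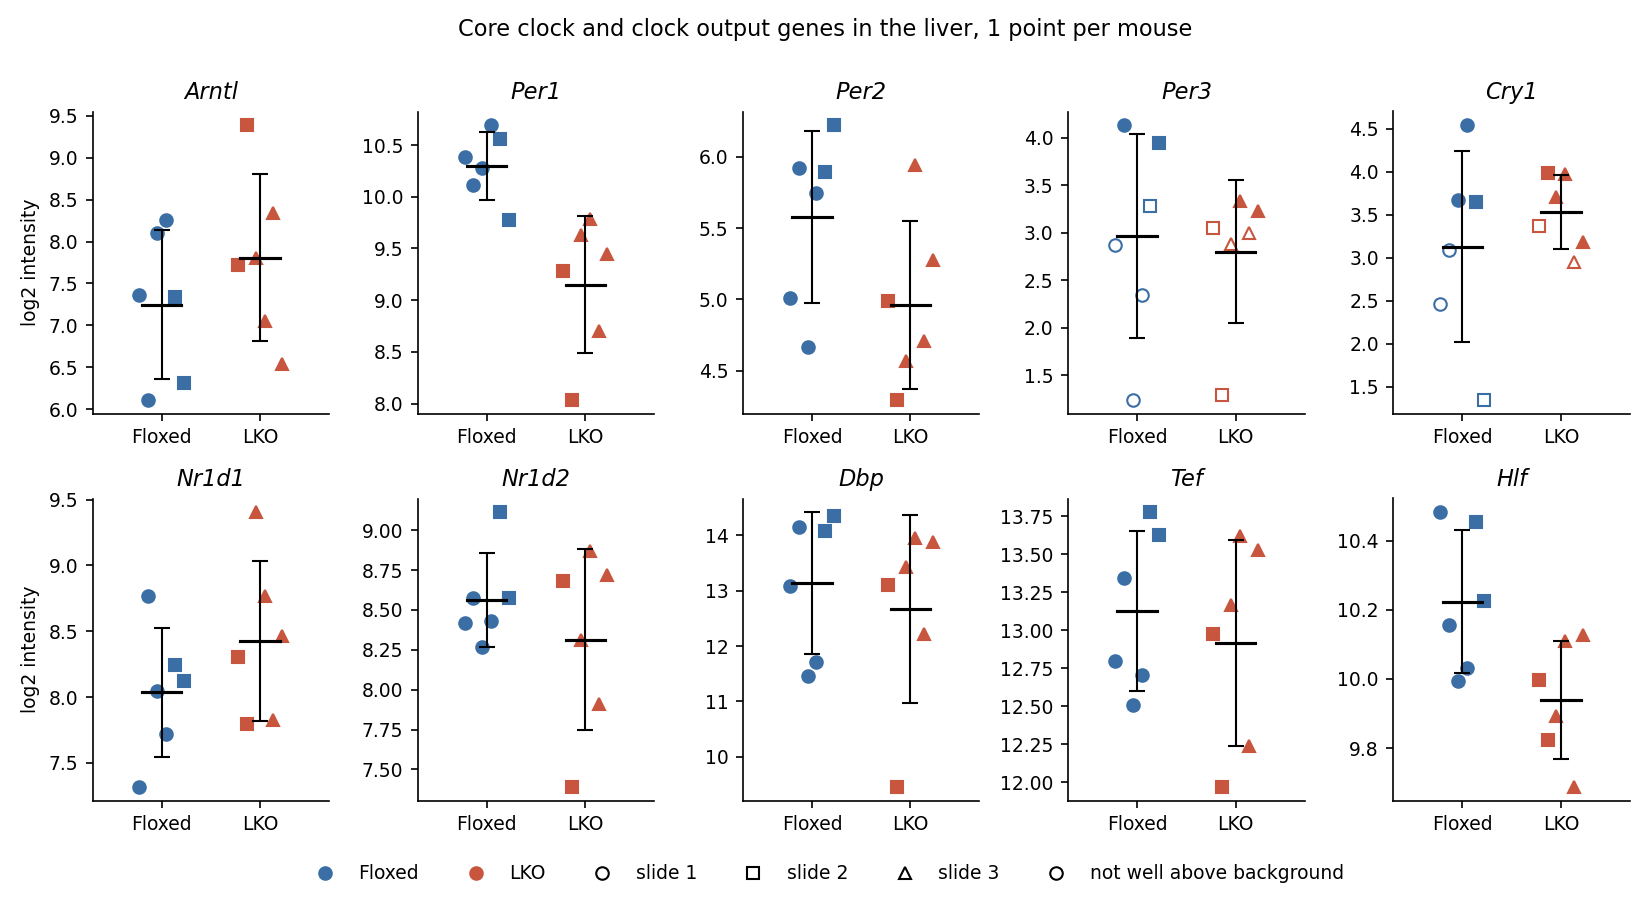
Log2 intensity (y axis) of each of the 10 genes in Floxed and LKO mice (x axis), 1 point per mouse, with shapes for the slides, open points for signals not well above background and black lines for mean ± SD (n = 6). Per1 lies between 9.77 and 10.69 in Floxed mice and between 8.04 and 9.79 in LKO mice, while Arntl and Dbp spread over a wide range in both.

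The activator gene Arntl varied widely among mice of the same genotype. Its log2 intensity was 7.36, 6.11, 8.10, 8.26, 7.33 and 6.31 in Floxed 1 to 6 and 7.71, 9.39, 7.80, 7.06, 8.34 and 6.54 in LKO 1 to 6. The groups overlapped through most of their range, with LKO 2 above all others. The log2 fold change of LKO over Floxed was 0.56 (standard error 0.48, limma p = 0.267, adjusted p = 0.894, exact permutation p = 0.331), with a 95% interval from -0.48 to 1.60. It was 0.33 without Floxed 2, 0.37 without Floxed 6, 0.24 without LKO 2 and 0.19 without LKO 1 and LKO 2. Within slide 2 the difference was 1.73, whereas between LKO mice of slide 3 and Floxed mice of slide 1 it was -0.025.

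Dbp, the D-box activator, varied even more. Its log2 intensity was 13.09, 14.15, 11.46, 11.71, 14.07 and 14.35 in Floxed 1 to 6 and 13.10, 9.45, 13.44, 13.96, 12.22 and 13.89 in LKO 1 to 6. LKO 2 was lowest, and the 12 livers spanned 4.90 on the log2 scale, a 29.8-fold range. Its SD within genotype (1.51) was the 14th highest of all genes tested, while the median gene spanned 0.74 over the 12 mice. The log2 fold change was -0.46 (standard error 0.77, limma p = 0.557, adjusted p = 0.969, exact permutation p = 0.628), with a 95% interval from -2.12 to 1.19. Without LKO 2 it was 0.18, and without LKO 1 and LKO 2 it was 0.24, so no direction can be read for Dbp. The second Dbp probe followed the first (r = 0.996 over 12 arrays) and gave a log2 fold change of -0.40.

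Arntl and Dbp ran opposite to each other from mouse to mouse. Over the 12 livers Pearson's r was -0.907 (permutation p = 4.00e-05) and Spearman's rho was -0.909 (permutation p = 0.00014). A family of 8 relations was tested, Arntl with each of the 7 other tested genes and Dbp with Per1, while other correlations are given as descriptions without a p, and the adjusted p of this r over those 8 was 0.00032. Without Floxed 2 and LKO 2, the mice farthest from the median of Arntl, r was -0.854 (permutation p = 0.0007), and without LKO 1 and LKO 2 it was -0.855 (permutation p = 0.00128). Within Floxed mice r was -0.893 (exact permutation p = 0.0222, n = 6) and within LKO mice -0.930 (exact permutation p = 0.0111, n = 6). As deviations from the mean of each genotype on each slide, the values correlated at -0.896, so the relation also stood within slides.

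**Figure D2:**
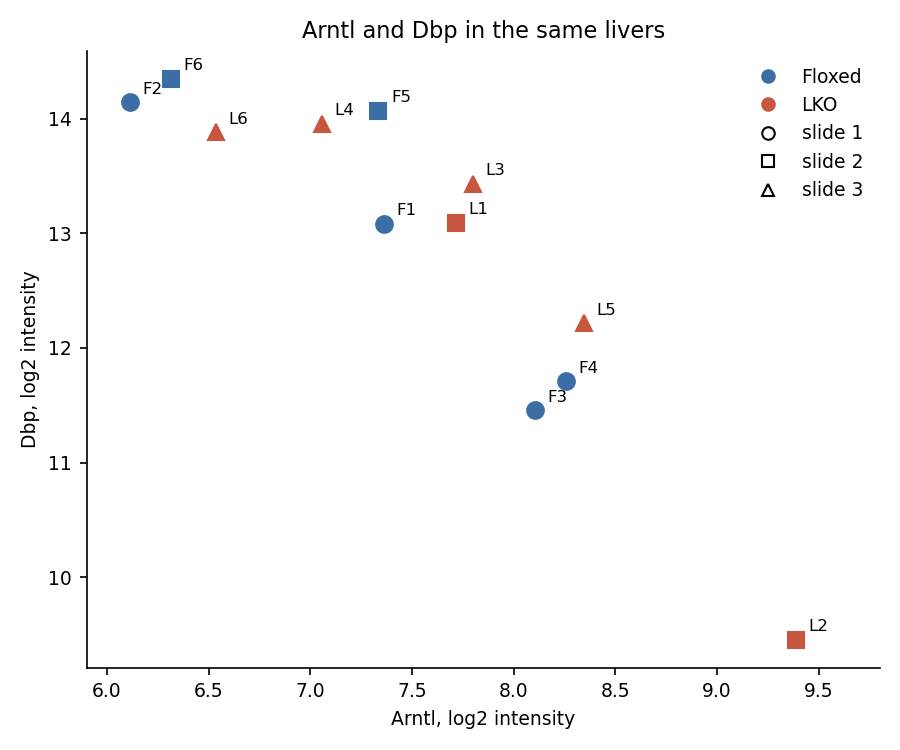
Log2 intensity of Dbp (y axis) against that of Arntl (x axis) in 12 livers, labeled F for Floxed and L for LKO with the mouse number, with shapes for the slides. Mice of both genotypes lie along the same falling course, with r = -0.907, and LKO 2 lies at its lower right end.

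The log2 difference Dbp minus Arntl was 5.72, 8.04, 3.35, 3.45, 6.74 and 8.04 in Floxed 1 to 6 and 5.38, 0.066, 5.64, 6.90, 3.87 and 7.35 in LKO 1 to 6. Both genotypes covered much of the same range, except for LKO 2, the lowest of the 12. The means were 5.89 ± 2.11 for Floxed and 4.87 ± 2.65 for LKO mice (SD, n = 6 each). The difference of -1.02 was smaller than either SD, and without LKO 2 it was -0.061 and without LKO 1 and LKO 2 it was 0.051. It was -4.66 within slide 2, where LKO 2 was hybridized, and 0.80 between slides 3 and 1. As a score over the studied genes it was not tested.

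Among the PAR bZIP genes, Tef and Hlf kept to a narrower range than Dbp. Tef, whose promoters hold the E-boxes shown above, had a log2 intensity of 12.51 to 13.78 in Floxed mice (median 13.07) and of 11.97 to 13.62 in LKO mice (median 13.07). These ranges overlapped almost wholly, and the log2 fold change was -0.21 (standard error 0.31, limma p = 0.513, adjusted p = 0.960, exact permutation p = 0.558). It was -0.080 without Floxed 5, -0.11 without Floxed 6, -0.021 without LKO 2, -0.074 without LKO 5 and 0.012 without LKO 1 and LKO 2. Tef followed Dbp among the mice (r = 0.913 over 12 mice) and ran against Arntl at r = -0.845 (permutation p = 0.00068, adjusted over the 8 relations 0.00272; rho = -0.846, permutation p = 0.00128). Without Floxed 2 and LKO 2 the r of Tef with Arntl was -0.819. Within genotype it was -0.706 in Floxed mice (exact permutation p = 0.15, n = 6) and -0.941 in LKO mice (exact permutation p = 0.0111, n = 6).

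Hlf was the second gene called. Its log2 intensity was 10.48, 10.16, 9.993, 10.03, 10.45 and 10.23 in Floxed 1 to 6 and 9.998, 9.82, 9.89, 10.11, 9.69 and 10.13 in LKO 1 to 6. The groups overlapped between 9.993 and 10.13, where 3 LKO mice lay. LKO over Floxed gave a fold of 0.821, or -0.28 on the log2 scale (standard error 0.11), with limma p = 0.0228, adjusted p = 0.490 and a two-sided exact permutation p = 0.0281. The call was lost without Floxed 1 (-0.23), Floxed 5 (-0.24) or LKO 5 (-0.23), without LKO 1 and LKO 2 (-0.27), without slide 2 (-0.21), with slide as a fixed block (-0.43) and with Arntl as a covariate (-0.22). Hlf also ran against Arntl, at r = -0.588 (permutation p = 0.0417, adjusted 0.0668; rho = -0.762, permutation p = 0.00542), and without Floxed 2 and LKO 2 the r was -0.552 (permutation p = 0.0995).

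The REV-ERB genes code for repressors of Arntl. Nr1d1 had a log2 intensity of 7.32, 8.77, 8.05, 7.72, 8.24 and 8.12 in Floxed 1 to 6 and of 8.30, 7.80, 9.40, 8.77, 7.82 and 8.46 in LKO 1 to 6. LKO 3 was highest, and the groups overlapped. The log2 fold change was 0.39 (standard error 0.28, limma p = 0.194, adjusted p = 0.849, exact permutation p = 0.251), 0.25 without Floxed 1, 0.19 without LKO 3, 0.58 without LKO 1 and LKO 2, and -0.13 with slide as a fixed block. Nr1d1 and Arntl had an r of -0.382 (permutation p = 0.218, adjusted 0.218; rho = -0.543, permutation p = 0.0732), which was -0.189 without Floxed 2 and LKO 2. Within genotype the r was -0.592 in Floxed mice (exact permutation p = 0.194, n = 6) and -0.533 in LKO mice (exact permutation p = 0.267, n = 6).

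Nr1d2 had a log2 intensity of 8.27 to 9.11 in Floxed mice (median 8.50) and of 7.39 to 8.87 in LKO mice (median 8.50). The medians were alike, and LKO 2 was again lowest. The log2 fold change was -0.25 (standard error 0.24, limma p = 0.311, adjusted p = 0.918, exact permutation p = 0.390). It was -0.14 without Floxed 5, -0.064 without LKO 2 and -0.11 without LKO 1 and LKO 2. Its r with Arntl was -0.732 (permutation p = 0.00828, adjusted 0.0166; rho = -0.727, permutation p = 0.0093) over the 12 mice and -0.590 (permutation p = 0.0702) without Floxed 2 and LKO 2. Within Floxed mice r was -0.292 (exact permutation p = 0.622, n = 6) and within LKO mice -0.930 (exact permutation p = 0.0139, n = 6). Whether the r of Nr1d2 with Arntl differed between the genotypes was not tested. The slopes of Nr1d2 on Dbp minus Arntl in the genotypes differed by 0.13 (standard error 0.063, permutation p = 0.0779).

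Of the repressors, Per1 had the largest difference between the genotypes. Its log2 intensity was 10.38, 10.11, 10.28, 10.69, 10.56 and 9.77 in Floxed 1 to 6 and 9.28, 8.04, 9.63, 9.79, 8.71 and 9.45 in LKO 1 to 6. The groups met at 1 point only, where LKO 4 (9.79) lay just above Floxed 6 (9.77). The log2 fold change was -1.15 (standard error 0.27, 95% interval -1.74 to -0.57), so that the signal in Floxed mice was 2.22-fold that in LKO mice. Its limma p of 0.000945 ranked 61st of the 16915 genes, the adjusted p was 0.257, and the exact permutation p (two-sided) was 0.00433. Leaving out single arrays gave log2 fold changes from -1.28 to -0.93.

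The Per1 difference had the same sign on each side of the slide layout. Within slide 2, with 2 mice of each genotype including LKO 2, it was -1.51. The fit with slide as a fixed block gives this same estimate, because the other slides held 1 genotype each. Per1 was called there (standard error 0.43), as were 1.87% of all genes, and 0 genes passed adjustment. LKO mice of slide 3 lay 0.97 on the log2 scale below Floxed mice of slide 1, where genotype and slide cannot be told apart. Without slide 2 Per1 was called (standard error 0.23, adjusted p = 0.0843 in limma), as were 11.5% of all genes. Of these, 324 genes passed adjustment and Per1 did not. Without LKO 1 and LKO 2, the arrays with a Phgdh signal in the Floxed range, the log2 fold change was -0.91 (adjusted p = 0.0552 in limma). Per1 was called at this setting, as were 12.8% of all genes, of which 571 passed adjustment and Per1 did not.

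Per2, the paralog of Per1, was not called. Its log2 intensity was 5.01, 5.92, 4.67, 5.75, 5.89 and 6.22 in Floxed 1 to 6 and 4.99, 4.29, 4.56, 5.94, 4.71 and 5.27 in LKO 1 to 6. The highest LKO mouse, LKO 4, lay above 5 of the 6 Floxed mice, and the groups overlapped. The log2 fold change was -0.61 (standard error 0.31, limma p = 0.0671, adjusted p = 0.652, exact permutation p = 0.115). It was -1.42 within slide 2, where limma called it with slide as a fixed block, and -0.21 between slides 3 and 1. Without LKO 1 and LKO 2 it was -0.45. It was called without Floxed 1 (-0.73), Floxed 3 (-0.80) or LKO 4 (-0.81). Per2 ran against Arntl at r = -0.736 (permutation p = 0.00644, adjusted 0.0166; rho = -0.790, permutation p = 0.00346), and at -0.592 (permutation p = 0.0752) without Floxed 2 and LKO 2.

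Per3 and Cry1 were not tested, because their probes were well above background on 4 and 7 of the 12 arrays. Per3 was well above background in 2 mice of each genotype, Floxed 2 (4.13), Floxed 6 (3.94), LKO 4 (3.33) and LKO 6 (3.23). On the other 8 arrays its signal, 1.24 to 3.28, was not well above background. Cry1 was well above background in 3 Floxed and 4 LKO mice. Its signal was 1.35 to 4.54 in Floxed mice (median 3.37) and 2.94 to 3.99 in LKO mice (median 3.54), with Floxed 6 lowest.

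Because Arntl and Dbp move with the phase of the loop, their difference was added to the model as a coarse reading of phase. A single value of it need not fix the phase, and the hour of dissection is not given. The model therefore cannot fully separate phase from the Per1 difference. With genotype and Dbp minus Arntl in the same limma model, Per1 was still lower in LKO mice, at -1.04 on the log2 scale (standard error 0.25, adjusted p = 0.136). It was called, as were 9.30% of all genes, and ranked 181st by p. With Dbp alone in the model it was -1.06 (9.18% of all genes called), and with Arntl alone -1.04 (9.35% called). This model gives both genotypes the same slope on Dbp minus Arntl, and separate slopes for Per1 are given later. For Tef the same term took the log2 fold change from -0.21 to 0.023, for Nr1d2 from -0.25 to -0.093, for Per2 from -0.61 to -0.43 and for Hlf from -0.28 to -0.24. Nr1d1 went from 0.39 to 0.53. Of these 5 genes Hlf alone was called with the term, at an adjusted p = 0.478. With Arntl alone as the covariate, Hlf (-0.22) was not called and Nr1d1 (0.57, adjusted p = 0.531) was.

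**Figure D3:**
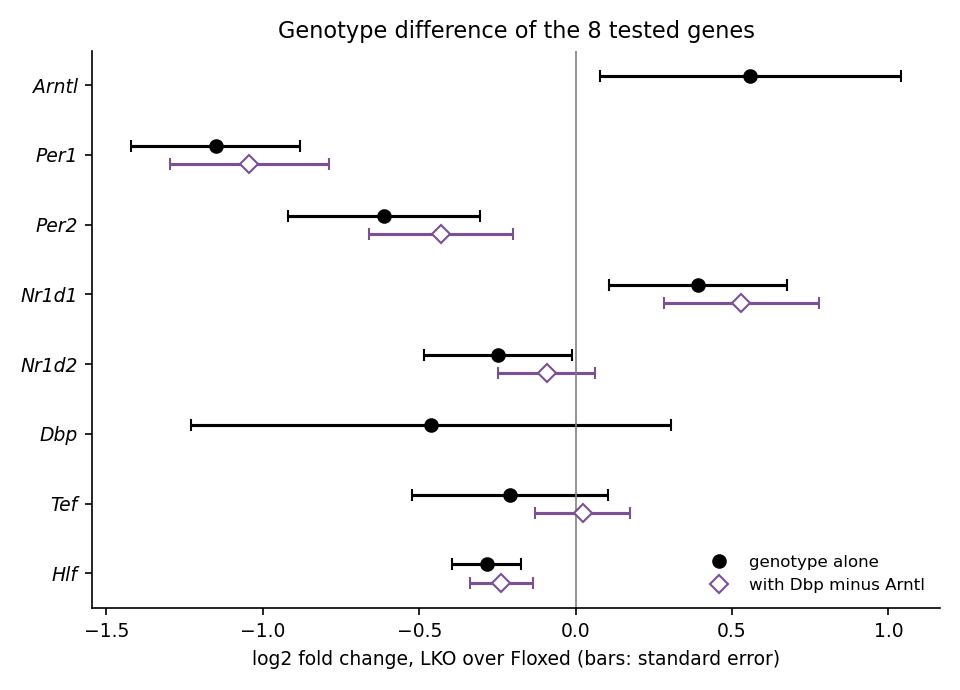
Log2 fold change of LKO over Floxed (x axis, bars are standard errors) for the 8 tested genes (y axis), from the model with genotype alone (filled circles) and with Dbp minus Arntl added (open diamonds, not drawn for Dbp and Arntl). Per1 stays near its value, at -1.15 and -1.04, while Tef goes from -0.21 to 0.023.

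Mice of like Dbp minus Arntl value can also be set side by side. Near the low end, Floxed 3 (3.35) and Floxed 4 (3.45) had Per1 at 10.28 and 10.69, and LKO 5 (3.87) had Per1 at 8.71. In the middle, Floxed 1 (5.72) had Per1 at 10.38, and LKO 1 (5.38) and LKO 3 (5.64) had it at 9.28 and 9.63. Near the high end, Floxed 2 and Floxed 6 (both 8.04) had Per1 at 10.11 and 9.77, and LKO 6 (7.35) had it at 9.45. Between these sets, Floxed 5 (6.74) had Per1 at 10.56 and LKO 4 (6.90) had it at 9.79. The LKO mice were lower in each set as drawn here, and the gap was widest at the low end, where LKO 5 was the only LKO mouse. The sets matter, since LKO 4 lay just above Floxed 6 of the high end, the only place where the groups met. With these mice in different sets, the order within sets follows from the group values and adds no support to the Per1 difference. LKO 2 (0.066, Per1 at 8.04) had no Floxed mouse near it.

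The r of Per1 with Arntl and with Dbp had opposite signs in the genotypes, though neither r in Floxed mice reached an exact permutation p below 0.05. Over all 12 mice Per1 and Arntl had an r of -0.454 (permutation p = 0.144, adjusted 0.175; rho = -0.252, permutation p = 0.428), which fell to 0.015 without Floxed 2 and LKO 2. Per1 and Dbp had an r of 0.471 (permutation p = 0.154, adjusted 0.175; rho = 0.168, permutation p = 0.602), and 0.062 without Floxed 3 and LKO 2. Within LKO mice Per1 rose with Dbp at r = 0.960 (exact permutation p = 0.0139, n = 6), while within Floxed mice r was -0.528 (exact permutation p = 0.267, n = 6). With Arntl, r was -0.872 in LKO mice (exact permutation p = 0.0333, n = 6) and 0.764 in Floxed mice (exact permutation p = 0.0917, n = 6).

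The slope of Per1 on Dbp minus Arntl was then compared between the genotypes. This was an interaction in limma across all genes, a test chosen after the data were seen. Per unit of Dbp minus Arntl, Per1 changed by 0.24 (standard error 0.042) in LKO mice and by -0.10 (standard error 0.052) in Floxed mice on the log2 scale. The slopes differed by 0.33 (standard error 0.067, limma p = 0.000404, adjusted p = 0.999), and a permutation of the genotypes over the values centered within genotype, through all 924 arrangements, gave p = 0.0281. Slopes of 2.81% of all genes differed at an unadjusted limma p below the threshold. The difference was 0.35 without LKO 2, 0.35 without LKO 1 and LKO 2 and 0.32 without slide 2, each called. Differences in slope were smaller for Per2 (-0.027, standard error 0.11), Tef (0.026, standard error 0.072), Nr1d1 (0.020, standard error 0.12) and Hlf (-0.0019, standard error 0.048), and none was called.

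**Figure D4:**
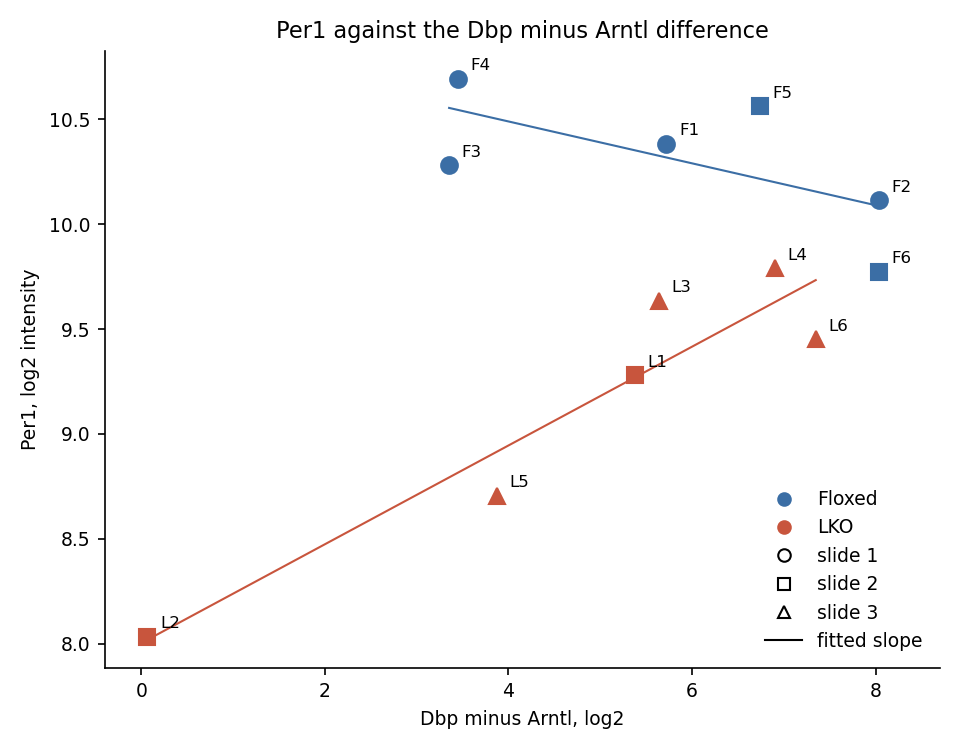
Log2 intensity of Per1 (y axis) against the log2 difference Dbp minus Arntl (x axis) in 12 livers, labeled F for Floxed and L for LKO with the mouse number, with shapes for the slides and the fitted slope of each genotype as a line. The LKO line rises by 0.24 per unit and the Floxed line changes by -0.10 per unit, so that the genotypes lie farthest apart at low Dbp minus Arntl.

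Other genes of the clock were read from lists written from textbook knowledge. Of 16 other core clock genes, which include the kinases and ubiquitin ligases that act on PER and CRY, 13 were tested. None was called by limma at an unadjusted p below 0.05, beside 8.35% of all genes, and their median difference was -0.00051 (log2). The largest differences were those of Nfil3, the D-box repressor (0.47, standard error 0.28), and Fbxl21, a ubiquitin ligase subunit for CRY (-0.22, standard error 0.19). Of 17 clock-controlled liver genes 16 were tested and none was called, with a median of -0.084, against -0.0035 for all genes tested. The largest were Alas1, the first enzyme of heme synthesis (-0.62, standard error 0.45), and Usp2, a deubiquitinase (-0.48, standard error 0.69). In lists this short, a lack of calls lies near the share of all genes called and does not set these genes apart.

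The same lists followed Dbp minus Arntl among the mice. Of the 16 clock-controlled genes, 8 had an absolute r of at least 0.7 with it, as had 1.29% of all genes tested. These correlations rest on the same 12 arrays as the difference itself, and are a description. Named after their values were seen, they were Usp2 (0.902), the mitotic kinase Wee1 (0.897), the cytochrome P450 reductase gene Por (0.887), the uridine phosphorylase gene Upp2 (0.787) and Rgs16 (0.703) in the direction of Dbp. Against it ran the fatty acid elongase gene Elovl3 (-0.811), the vasopressin receptor gene Avpr1a (-0.755) and Insig2 (-0.746), which holds back SREBP. Of the 13 other core clock genes, Bhlhe40 (0.768) and Nfil3 (-0.824) passed the same limit. Of the studied genes other than Dbp and Arntl themselves, Tef (0.906), Nr1d2 (0.818) and Per2 (0.725) passed it, while Hlf (0.587), Per1 (0.475) and Nr1d1 (0.458) did not.

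**Figure D5:**
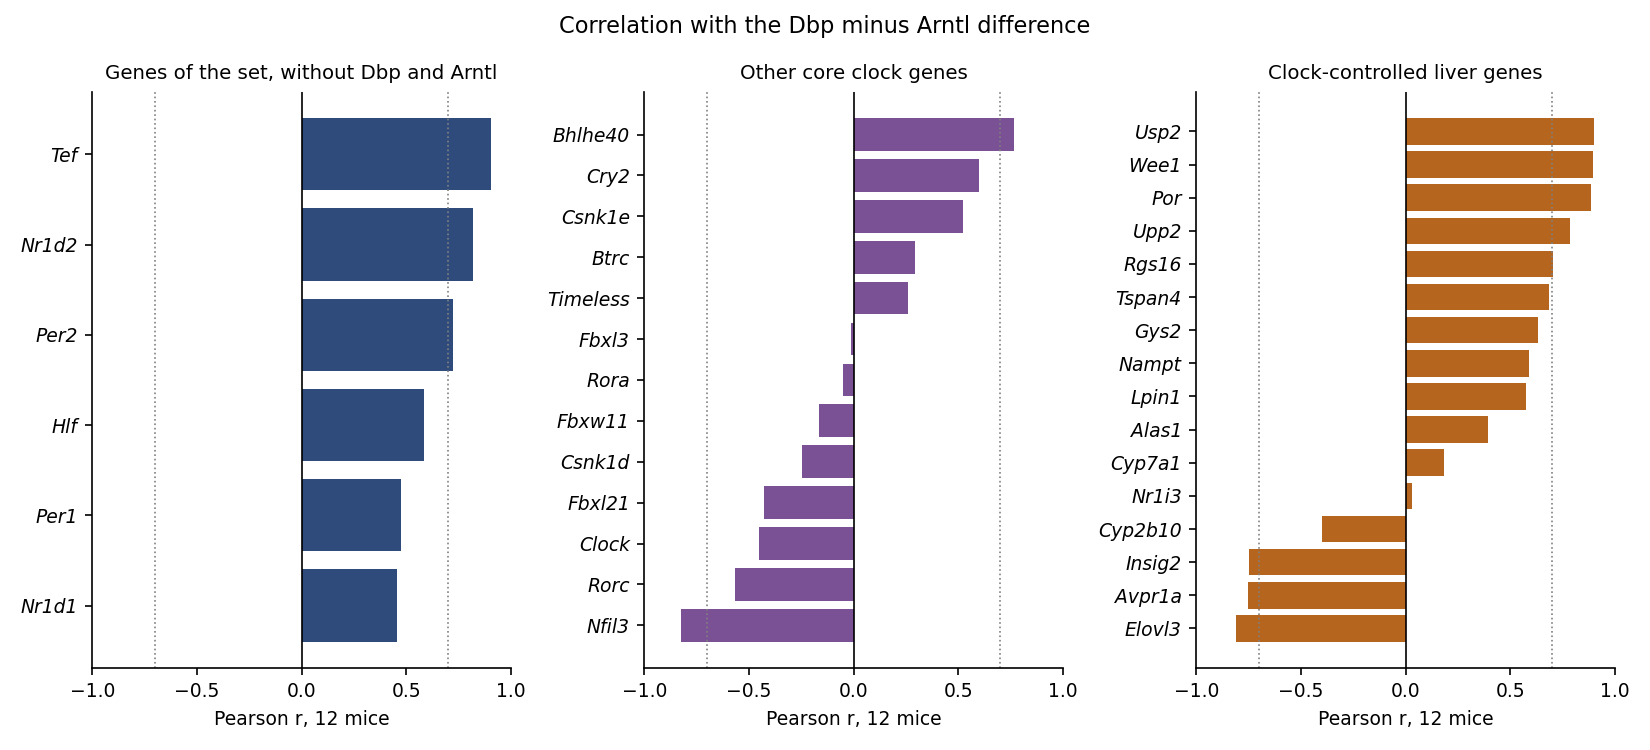
Pearson's r over 12 mice (x axis, dotted lines at 0.7 either way) between the log2 difference Dbp minus Arntl and each tested gene (y axis) of the studied set, of the other core clock genes and of the clock-controlled liver genes. Tef and Usp2 lie at the high end, at 0.906 and 0.902, and Nfil3 and Elovl3 at the low end, at -0.824 and -0.811.

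Among the 12501 genes with a symbol measured on all 12 arrays, those nearest to Dbp minus Arntl were Map2k3os (r = 0.961), the vitamin transporter gene Slc5a6 (0.916), Usp2, Wee1, Coq10b (0.896) and Pcsk4 (0.895). Among the most opposite were Clpx, of the mitochondrial protease ClpXP (-0.967), the thyroid hormone receptor gene Thra (-0.904), Denn2b (-0.902), the choline kinase gene Chka (-0.902) and Dtx4 (-0.897). None of these genes was called between the genotypes. Usp2 spanned a 15.0-fold range over the 12 livers and Wee1 a 6.52-fold range. The genes nearest to Per1 were others, Ubxn7 (r = 0.905), Gm14124 (0.891), Anks3 (0.889), Rab10os (0.875), the deubiquitinase gene Usp9x (0.873) and Foxa3, a transcription factor of hepatocytes (0.859). Each of these was called lower in LKO mice, as was Per1, so their r over the 12 mice partly holds that shared difference. Foxa3 was at -0.65 on the log2 scale (standard error 0.16, adjusted p = 0.273 in limma). Its r with Per1 was 0.888 within LKO and 0.144 within Floxed mice. Within Floxed mice the others had an r of 0.62 (Ubxn7) to 0.80 (Usp9x).

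Per1 takes up signals from outside the loop, so genes induced by the same signals were listed. Of 15 glucocorticoid-induced genes, all tested, 1 was called higher and 1 lower, beside 8.35% of all genes called, and their median was -0.086 on the log2 scale. Ddit4, an inhibitor of mTORC1, was higher by 0.53 (standard error 0.21), and Errfi1, an inhibitor of the EGF receptor, was lower at -0.65 (standard error 0.27). Fkbp5 (0.041) and Tsc22d3 (-0.13), widely used readings of glucocorticoid action named after their values were seen, were not called. The genes of this list that were not called ranged from Pck1 (-0.37, standard error 0.38) to Zbtb16 (0.62, standard error 0.48). Whether glucocorticoids had a part in the Per1 difference was not tested. Of 12 CREB-induced genes 10 were tested, with 2 called higher, 1 lower and a median of 0.083, beside 4.92% of all genes called higher and 3.43% lower. The immediate early genes Egr1 (1.53, standard error 0.56) and Nr4a1 (0.99, standard error 0.42) were higher in LKO mice, and Nr4a2 was lower (-0.66, standard error 0.29). The adjusted p of the 5 called genes of the 2 lists was between 0.440 and 0.569, so none held after adjustment in limma.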

How the data were processed

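Total RNA of 12 livers was read on single-color Agilent mouse arrays. The authors' methods name the RiboPure kit and the labels TRIzol with a Promega system. The authors deposited, for each spot, the intensity given by Agilent Feature Extraction (version 10.7.1.1 per the file headers, 9.5.1.1 per the submitters' processing notes), with background subtracted and without normalization between arrays, and a table of quantile-normalized intensities.

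Processed intensities were brought to log2 and quantile-normalized across the 12 arrays here, without control spots (1377 per array) and outlier spots (0.298%). A probe had to be well above background on each of the 12 arrays (20404 passed), since a detection p-value was not used here. The brightest probe stood for a gene, which left 16915 tested genes. Of 28389 probes with a RefSeq accession, 94.3% matched GRCm38.p6.

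Genotypes were compared with limma 3.58.1 (lmFit, eBayes; R 4.3.3) without covariates, at an unadjusted p below 0.05 after the methods. Single values of 6 against 6 were permuted over all 924 arrangements (smallest p 0.00216), and correlations over 12 mice by 100000 permutations. The studied genes, the gene lists and the markers were chosen with earlier results of these data known. Named were all 10 genes, the called genes of each list or else its 2 largest differences, and the 6 genes nearest in r, of which 1 is not reported here. Alternatives covered scaling, background, filter, probes, threshold, slide, replicate number and arrays left out. Dbp or Arntl alone as a covariate, the slopes, and the fits without slide 2 or without LKO 1 and LKO 2 were chosen after seeing the data. The code was tested on simulated data.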

Additional observations from a re-analysis of the deposited data

Results flagged for a closer look

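The slope of Per1 on Dbp minus Arntl differed between the genotypes by 0.33 on the log2 scale (LKO minus Floxed, limma interaction p = 0.000404, adjusted p = 0.999, permutation p = 0.0281). In leaving out single arrays it stayed between 0.29 and 0.39. Of the 24 groups of 6 values within a genotype that were searched for a single far value, 2 held one, and 1.2 are expected by chance. Per3 was lowest in LKO 2, at 1.29 against 2.88 in the next mouse, on a probe that was not well above background in that mouse. Nr1d2 was highest in Floxed 5, at 9.11 against 8.58 in the next.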

How the results depend on the processing

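Per1 was lower in LKO mice under all 32 alternatives run, with log2 fold changes from -1.51 to -0.91, and was called in all but the adjusted threshold (-1.15, adjusted p = 0.257 in limma). The slope difference of Per1 was called at an unadjusted p under all 19 alternatives run for it (0.29 to 0.39). These did not include slide or replicate number as a block, or the adjusted threshold. In the main fit its adjusted p was 0.999 in limma. The other genes moved with slide, Hlf as much with arrays scaled to their median (-0.43), and the cause was not tested. With slide as a fixed block, Arntl was at 1.73 and Dbp at -2.94, both called, Dbp minus Arntl at -4.66, Nr1d1 at -0.13, and 5 of the studied genes were called. Without slide 2, Arntl was at -0.025, Dbp at 0.78, their difference at 0.80, Nr1d2 at 0.031 and Tef at 0.30, with 1 gene called. Without LKO 1 and LKO 2, Dbp was at 0.24, the difference at 0.051 and Tef at 0.012, with 1 called. With Arntl in the model Dbp was at 0.35 and Tef at 0.093, and with Dbp minus Arntl Tef was at 0.023. Leaving out single arrays put Dbp between -0.80 and 0.18 (without LKO 2), and called 1 to 3 of the studied genes, 1 without Floxed 5 or LKO 5.

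Over all genes, 1413 were called in limma and 0 after adjustment, where 0 of the studied genes passed too, and the methods' t-test kept 1 of 1236. A floor of 1 on the absolute log2 difference left 88, and 1 studied gene. The count was 317 with slide as a fixed block, 2173 without LKO 1 and LKO 2, 2791 without the filter on dim probes and 2270 with arrays scaled to their median, which moved the median gene by -0.12 and made 579 calls higher and 1691 lower, against 832 and 581. Scaling to the 75th percentile gave 1127 and 316. No studied gene changed sign under either scaling. The replicate numbers were not used as pairs, since the labels do not say what they share. The deviations of same-numbered mice from their group means correlated at r from -0.24 to 0.32. Same-numbered mice have neighboring numbers in the titles, such as 232 for Floxed 1 and 231 for LKO 1. Whether they were littermates of each other is not stated. With replicate block, 1428 genes were called, Arntl and Dbp correlated at -0.971, and Per2 (-0.61, adjusted p = 0.565) was called beside Per1 and Hlf. Per3 and Cry1 were too dim to test.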

Other observations

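Stress and temperature can act on the clock. Of 10 heat shock genes 9 were tested and none was called by limma at an unadjusted p below 0.05, beside 8.35% of all genes, with Hsph1 at -0.37 and Dnajb1 at -0.18 on the log2 scale. The cold-induced genes Rbm3 (0.13) and Cirbp (-0.044) were not called.

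Some glucocorticoid-induced genes ran against Dbp minus Arntl among the 12 mice, which is a description. Of the 15 genes, 3 had an absolute r of at least 0.7, the kinase gene Sgk1 (-0.853), the cell cycle inhibitor gene Cdkn1a (-0.826) and Igfbp1 (-0.706), named after their values were seen. None of the CREB-induced, heat shock or cold-induced genes reached that limit.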
